A study of Mus musculus with 24 samples.

Results

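The genes described here encode the Fat and Dachsous giant cadherins of mouse and 2 proteins that work beside them. They were taken by name from the tables of all 24 libraries as Fat1, Fat2, Fat3, Fat4, Dchs1, Fjx1 and Celsr2, which makes 7 of 24421 gene names. The samples are astrocytes purified by cell sorting from 4 parts of the brain, namely brainstem, cortex, hippocampus and olfactory bulb, of C57BL6 mice at 20 weeks of age, and their RNA was sequenced. In 12 libraries, 3 for each region, the mice carried NFIAfl/fl with Aldh1l1-CreER and Aldh1l1-GFP, and these libraries are labelled as NFIA knockouts. The other 12, again 3 for each region, came from control mice with NFIAfl/fl and Aldh1l1-GFP but without the CreER transgene. Every group thus shares the floxed NFIA alleles and the green reporter, and both transgenes are driven from Aldh1l1, a gene used as an astrocyte marker. CreER is an inducible recombinase, and its induction is not described in the labels. The labels do not say whether the 3 libraries of a group, or those of the 4 regions, came from separate animals. All 24 libraries were fitted as separate. The p-values, also those for the average of regions, thus measure only the spread between these libraries.

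Fat and Dachsous cadherins are very large transmembrane proteins with long arrays of cadherin repeats outside the cell. In Drosophila, Fat and Dachsous bind each other across cell borders, and the Golgi kinase Four-jointed phosphorylates their cadherin repeats and so tunes that binding. In Drosophila the pair orients cells within a tissue, a property called planar polarity, and restrains growth through the Hippo kinase pathway. In mice, Fat4 and Dchs1 form the receptor and ligand pair most like the fly proteins, and both are known from the ordering of neural progenitors and neurons in the developing brain. Fjx1 is the mouse relative of Four-jointed. Celsr2 is a mouse relative of Flamingo, a seven-pass cadherin of the core planar polarity pathway.

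The libraries held between 1090777 and 24297573 reads, with brainstem the shallowest region at 1090777 to 5552215. The labels did not match the level of the targeted gene. Nfia averaged 8003 normalised reads in libraries labelled knockout and 4528 in controls of olfactory bulb, 11870 and 6216 in hippocampus, 8367 and 5081 in cortex, and 9666 and 4627 in brainstem. In 12 of 12 libraries labelled knockout Nfia was above every control of its region. The part of the gene flanked by loxP sites is not given in the labels, so a whole-gene count does not show whether a deleted transcript was made, and every direction below is that of the label. The 12 astrocyte markers, among them Aldh1l1, Aqp4 and Slc1a3, were above 0 in every group. For the average 3 of the 12 were called higher and 1 lower in libraries labelled knockout. Of all genes tested, 2.79% were called higher and 3.09% lower. The median log2 fold change of the 12 was 0.20. That median was -0.04 in the olfactory bulb, 0.40 in the hippocampus, -0.14 in the cortex and 0.43 in the brainstem. Their summed level was between 437891 and 527566 jointly scaled reads in hippocampal libraries labelled knockout and between 292990 and 492369 in hippocampal controls, and in brainstem between 262668 and 328858 in libraries labelled knockout and between 126776 and 340504 in controls. The part of this difference in any result below was not tested. The ribosomal RNA gene Rn45s took between 0.966% and 3.33% of reads in olfactory bulb and hippocampus, with the exception of olfactory bulb knockout 3 at 20.8%. In cortex and brainstem it took between 13.5% and 25.6%. The summed level of 8 choroid plexus markers was between 3572 and 9398 jointly scaled reads in hippocampal libraries labelled knockout and between 107437 and 222597 in hippocampal controls. In brainstem it was between 8074 and 138392 in libraries labelled knockout and between 77069 and 369378 in controls, and in cortex between 1112 and 12158 in libraries labelled knockout and between 3401 and 94996 in controls. In olfactory bulb it was between 2484 and 2988 in libraries labelled knockout and between 2430 and 2950 in controls. None of the 8 was at 0 throughout a hippocampal group, while Folr1 was at 0 in the olfactory bulb. The part of these cells in any result below was not tested.

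In the GENCODE annotation of mm10, Fat1 lies at chr8:44935447-45052257 on the plus strand, Fat2 at chr11:55250609-55336564 on the minus strand, and Fat3 at chr9:15910189-16501285 on the minus strand. Fat4 lies at chr3:38886940-39011985 on the plus strand, Dchs1 at chr7:105752990-105787654, Fjx1 at chr2:102449366-102452499 and Celsr2 at chr3:108390851-108415552, the last 3 on the minus strand. The merged exons span 15.655 kb in Fat1, 14.528 kb in Fat2, 21.478 kb in Fat3, 17.165 kb in Fat4, 11.052 kb in Dchs1 and 11.513 kb in Celsr2. Fjx1 is a gene of 1 exon of 3.134 kb with no intron, unlike the others, which have between 17 and 31 merged exons. Because the lengths differ so much, levels are compared between genes only per kb of exon. Genes on the opposite strand overlap exons of Fat1 (487 bases, Gm2366), Fat4 (1209 bases, C230034O21Rik, and 281 bases, Gm43539) and Dchs1 (648 bases, Gm15645). How reads were assigned to strands is not given in the sources used here, so reads of these overlapping genes cannot be told apart from reads of the cadherins.

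The 300-base promoter windows of RefSeq on GRCm38.p6, from 250 bases before to 50 after each start, were available for 5 of the 7 genes, all but Dchs1 and Fjx1. They were searched on both strands for the core of nuclear factor I sites (TTGGC, or GCCAA on the other strand), for the full palindrome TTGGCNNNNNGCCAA, of which that core forms part, and for the TEAD core GGAATG. The nuclear factor I core stands in 46.7% of 32851 mouse promoter windows of the same length, and at least 2 copies in 14.4% of them. Fat3 and Fat4 have 2 copies each, and Fat1, Fat2 and Celsr2 have 0. The full palindrome is in 12 of all windows, 0.0365%, and in 0 of these 5. The TEAD core, in 14.7% of all windows, occurs 1 time each in Fat1 and Fat2, whose RefSeq windows lie inside the gene's span in GENCODE. The windows of Fat4 and Fat3 are shown because Fat4 is the gene that differed between genotypes below and Fat3 is the one other gene with that core. Capitals mark the nuclear factor I core. It begins at -81 and 26 in Fat4 and at -204 and -3 in Fat3, counted from 0 at the RefSeq start. The Fat3 window lies wholly upstream of that gene's span in GENCODE, so its positions hold for the RefSeq start alone. The Fat4 window is chr3:38886690-38886989 on the plus strand and the Fat3 window is chr9:16502005-16502304 on the minus strand.
Fat4: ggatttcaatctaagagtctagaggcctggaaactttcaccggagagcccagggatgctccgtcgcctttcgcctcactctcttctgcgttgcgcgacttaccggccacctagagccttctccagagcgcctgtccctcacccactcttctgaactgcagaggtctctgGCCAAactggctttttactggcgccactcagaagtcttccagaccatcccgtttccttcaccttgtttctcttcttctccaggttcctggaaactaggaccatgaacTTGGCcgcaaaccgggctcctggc
Fat3: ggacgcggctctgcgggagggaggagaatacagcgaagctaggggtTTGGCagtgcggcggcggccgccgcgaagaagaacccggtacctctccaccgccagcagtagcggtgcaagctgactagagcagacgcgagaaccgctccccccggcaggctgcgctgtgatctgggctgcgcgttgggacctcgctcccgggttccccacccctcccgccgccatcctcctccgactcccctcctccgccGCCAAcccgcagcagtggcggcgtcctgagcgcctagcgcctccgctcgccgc
A match of letters is a description of these windows and is not evidence of binding.

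Fat4, the receptor of the pair, was higher in libraries labelled knockout in each of the 4 regions, and the difference passed the test in 3 of them and for their average. In olfactory bulb its normalised read counts were 2037, 1948 and 1511 in libraries labelled knockout, against 1459, 1156 and 1439 in controls. In hippocampus they were 686, 890 and 655 in libraries labelled knockout, against 422, 471 and 465 in controls. The lowest library labelled knockout was above the highest control in both regions. In cortex the counts were 617, 672 and 759 in libraries labelled knockout, against 351, 445 and 328 in controls. In brainstem they were 1045, 903 and 764 in libraries labelled knockout, against 400, 689 and 397 in controls. The groups did not overlap in these regions either, so 12 of 12 libraries labelled knockout exceeded the highest control of the same region. Over all 12673 genes tested, 28 (0.221%) were higher without overlap in all 4 regions. In single regions the share was 7.19% in olfactory bulb, 9.76% in the hippocampus, 7.23% in the cortex and 5.41% in the brainstem.

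Group means of Fat4 had a ratio of 1.82 in brainstem and in cortex, 1.64 in hippocampus and 1.36 in olfactory bulb. With limma and Benjamini-Hochberg adjustment over all genes, the log2 fold change of libraries labelled knockout over controls was 0.90 in brainstem (SE 0.19, adjusted p = 0.0205), 0.86 in cortex (SE 0.19, adjusted p = 0.0369) and 0.70 in hippocampus (SE 0.19, adjusted p = 0.0424). In olfactory bulb it was 0.43 (SE 0.19) and did not pass (adjusted p = 0.890). Averaged over the regions it was 0.72 (SE 0.09, adjusted p = 1.39e-05), which ranked 22 of 12673 genes by p. The test of whether the effect differed among regions did not pass (adjusted p = 0.892), and the difference of olfactory bulb minus brainstem was -0.47 (95% confidence interval -1.01 to 0.08). Called genes made up 2.51% of all genes tested in hippocampus (0.718% in the higher direction), 0.324% in cortex (0.103% higher), 0.773% in brainstem (0.544% higher), 0.0868% in olfactory bulb (0.0158% higher) and 5.88% for the average (2.79% higher). Among the 7 genes Fat4 was the 1 call in hippocampus, in cortex, in brainstem and for the average. In olfactory bulb limma called 0 of the 7, and edgeR and DESeq2 called 0 as well. Of the 7, 1 was under an unadjusted p of 0.05 there, beside 5.2% of all genes tested.

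The calls within single regions depended on single libraries. In hippocampus the call of Fat4 was lost whichever of the 6 libraries was left out, with adjusted p between 0.0764 and 0.239. In cortex it was kept only without control 2, and in brainstem it was lost without control 1, control 3 or the library labelled knockout 1, with adjusted p of up to 0.231 in cortex and 0.146 in brainstem. The log2 fold change over these fits stayed between 0.56 and 0.78 in hippocampus, between 0.78 and 0.99 in cortex and between 0.77 and 1.16 in brainstem. The call on the average was kept in each of the 24 fits that left out 1 library, with adjusted p between 2.22e-07 and 6.28e-05 and a log2 fold change between 0.69 and 0.79. Averaged over olfactory bulb and cortex alone, a choice made after the data were seen, it was 0.65 (limma adjusted p = 0.0123). Choroid plexus sums overlapped between the genotypes in both of these regions and in brainstem, and their range in cortical controls was far wider. Such an overlap does not show that the content of these cells was equal. The medians were 5397 in libraries labelled knockout and 8405 in controls of cortex, and 99675 and 182937 in brainstem. In olfactory bulb they were 2608 and 2702. The part of these cells in the value of 0.65 was not tested. Without the olfactory bulb and brainstem libraries labelled knockout 3, also chosen after the data were seen, the average of Fat4 was 0.79 (limma adjusted p = 1.40e-05). In bulk RNA of sorted cells, fewer cells of a type and less RNA per cell cannot be told apart, and this holds for every level given here.

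**Figure D1:**
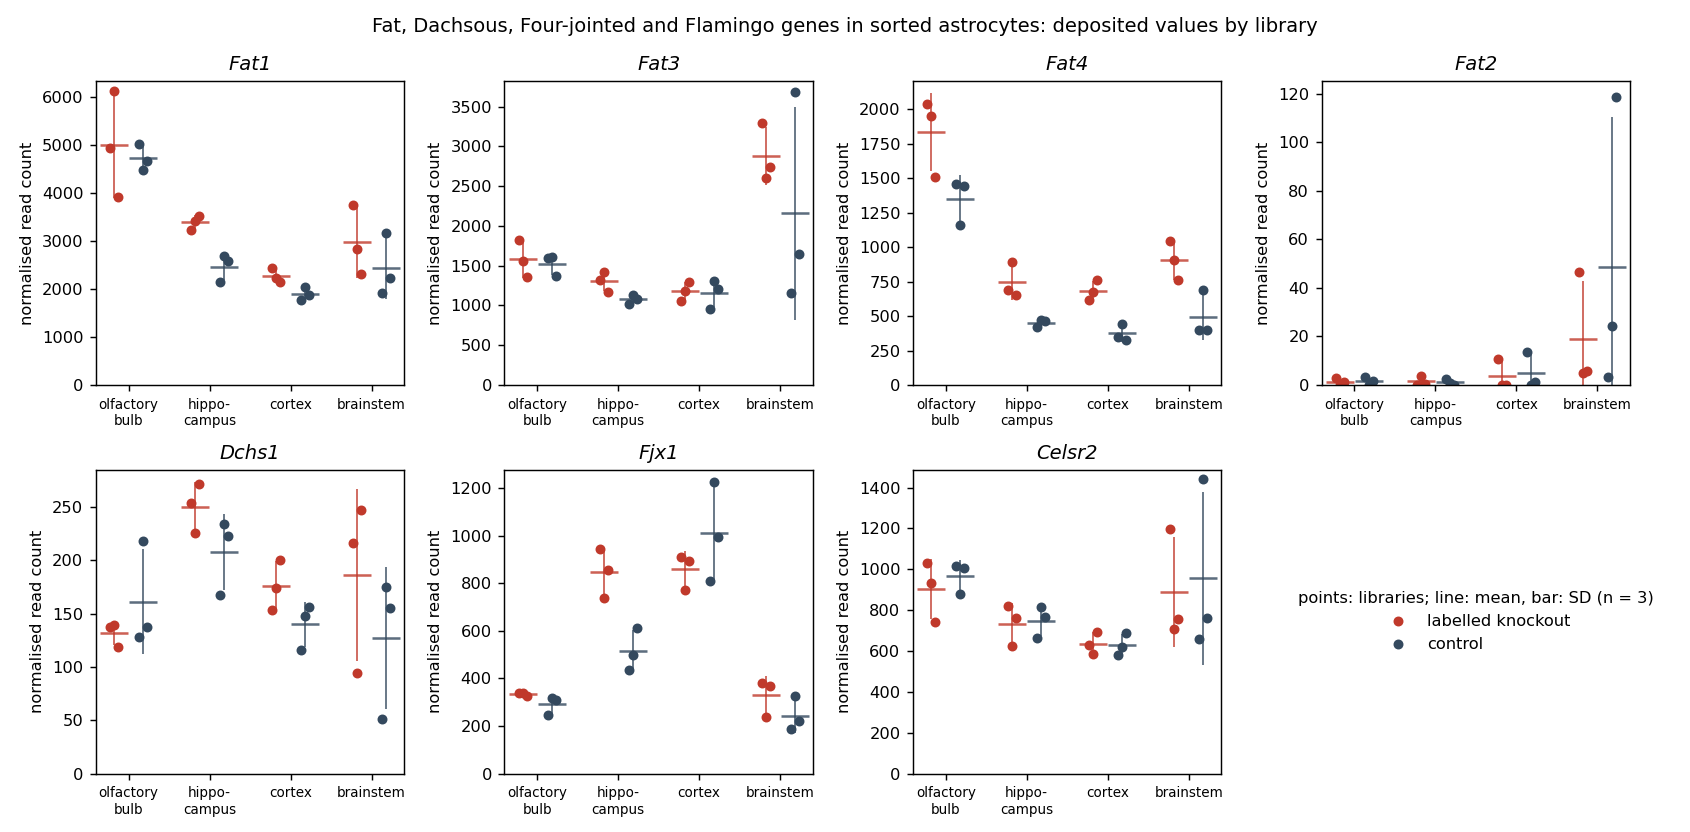
Normalised read counts of the 7 genes as deposited, on a linear axis from 0, with 1 point for each library, libraries labelled knockout to the left of controls in each of the 4 regions, a line at the mean and a bar of 1 SD (n = 3), drawn down to 0 at most. The 12 Fat4 points of libraries labelled knockout lie above the controls of their region, while the other genes overlap in at least 2 regions.

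Fat1 was the most abundant of the 4 Fat genes per kb of exon, and its difference between genotypes did not pass the test. In hippocampus its normalised read counts were 3241, 3420 and 3527 in libraries labelled knockout, against 2144, 2684 and 2590 in controls. In cortex they were 2447, 2237 and 2153 in libraries labelled knockout, against 1777, 2046 and 1887 in controls. In both regions the 3 libraries labelled knockout were above the 3 controls, which 9.76% of all genes tested also showed in hippocampus and 7.23% in cortex. In olfactory bulb the counts were 4942, 6125 and 3930 in libraries labelled knockout, against 5034, 4481 and 4677 in controls, and in brainstem 3765, 2849 and 2316 in libraries labelled knockout, against 1920, 3172 and 2230 in controls, and the groups overlapped in both. The log2 fold change was 0.46 in hippocampus (SE 0.18, adjusted p = 0.205), 0.26 in cortex, 0.29 in brainstem and 0.06 in olfactory bulb. The average was 0.27 (SE 0.09, limma adjusted p = 0.0738) and did not pass. It passed with DESeq2 (adjusted p = 0.0451), without brainstem control 2 (adjusted p = 0.00890), without the olfactory bulb library labelled knockout 3 (adjusted p = 0.0420) or the brainstem one (adjusted p = 0.0360), and without both (0.35, adjusted p = 0.0183).

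Fat3, the largest gene of the set, is known in mice for shaping the dendrites of retinal amacrine cells. Its hippocampal counts were 1314, 1424 and 1173 in libraries labelled knockout, against 1018, 1131 and 1086 in controls. The groups did not overlap, with libraries labelled knockout higher, which 9.76% of all genes tested also showed there. In brainstem they were 3298, 2601 and 2746 in libraries labelled knockout, against 1153, 3678 and 1645 in controls. Control 2 of brainstem was thus above the libraries labelled knockout, and controls 1 and 3 were below them. The brainstem log2 fold change was 0.58 (SE 0.24, limma adjusted p = 0.252). Without control 2 it was 1.05 and passed (adjusted p = 0.000395), and the difference among regions then passed as well (adjusted p = 0.0486). Aqp4, the astrocyte water channel, varied over the same 3 controls, with 9389, 20977 and 12199 jointly scaled reads in controls 1, 2 and 3, against 28481, 22222 and 26898 in the libraries labelled knockout, and its part in the Fat3 spread was not tested. In olfactory bulb Fat3 ranged between 1357 and 1828 in libraries labelled knockout and between 1366 and 1613 in controls, and in cortex between 1055 and 1301 in libraries labelled knockout and between 957 and 1303 in controls. The average over regions was 0.23 (SE 0.12, limma adjusted p = 0.316), and without brainstem control 2 it was 0.35 and passed (adjusted p = 0.00357).

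Fat2, which in mice is best known from cerebellar granule cells, was near the limit of detection. It had between 0 and 16 reads in each library of olfactory bulb, hippocampus and cortex and between 1 and 55 reads in brainstem. Its brainstem counts were 46.4, 4.82 and 5.75 in libraries labelled knockout, against 3.21, 24.4 and 119 in controls. One library in each genotype thus stood above the others of its group, and the groups overlapped. The granule cell gene Cbln3 was at 92.5, 3.20 and 5.72 jointly scaled reads in the brainstem libraries labelled knockout, against 4.26, 16.2 and 197 in controls 1, 2 and 3. The granule cell gene Gabra6 was at 34.7, 0 and 0 in the libraries labelled knockout, against 10.6, 18.2 and 62.2 in controls. The 3 libraries highest in Fat2 were also the 3 highest in Cbln3 and Gabra6, which were picked from the marker list after their values were seen. In control 2 they had 8 and 9 reads. Other genes of the list had another order, as Neurod1 was highest in the library labelled knockout 3, at 45.7. Cbln1 was higher in that library (17.2) than in control 2 (8.09), and Barhl1 was at 0 in controls 2 and 3. The part of these cells in the Fat2 level was not tested. Outside brainstem Gabra6 was at 0 in every library. Of the 6 granule cell markers 0 were at 0 throughout in either brainstem group. Their summed level there was between 852 and 982 in libraries labelled knockout and between 494 and 1344 in controls. In olfactory bulb, where Gabra6 and Cbln3 were at 0, the sum was between 1987 and 2159 in libraries labelled knockout. It was between 1433 and 1504 in olfactory bulb controls, so the sum is not particular to granule cells. Fat2 passed the filter of 20 in 3 libraries only through brainstem, and its average log2 fold change was -0.24 (SE 0.38, limma adjusted p = 0.807).

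Dchs1, the ligand that Fat4 binds, was the lowest of the genes per kb of exon after Fat2. In hippocampus its counts were 254, 225 and 272 in libraries labelled knockout, against 168, 235 and 223 in controls. In cortex they were 153, 175 and 200 in libraries labelled knockout, against 116, 148 and 156 in controls. The groups overlapped by 1 library in each case. In olfactory bulb the direction was the other way, with 138, 140 and 119 in libraries labelled knockout, against 128, 218 and 138 in controls, again with overlap. In brainstem the counts were 217, 94.8 and 247 in libraries labelled knockout, against 51.4, 175 and 155 in controls. The log2 fold change was -0.24 in olfactory bulb, 0.27 in the hippocampus, 0.32 in the cortex and 0.59 in the brainstem, with standard errors of 0.33, and 0.24 for the average (SE 0.17, 95% confidence interval -0.11 to 0.58, limma adjusted p = 0.495).

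Fjx1, the kinase of the set, had the effect that varied most among regions before adjustment. In hippocampus its counts were 946, 738 and 855 in libraries labelled knockout, against 436, 500 and 612 in controls. In olfactory bulb they were 340, 338 and 329 in libraries labelled knockout, against 246, 317 and 312 in controls. In both regions the 3 libraries labelled knockout were above the 3 controls, which 9.76% of all genes tested also showed in hippocampus and 7.19% in olfactory bulb. In cortex the counts were 911, 772 and 894 in libraries labelled knockout, against 811, 1224 and 993 in controls. In brainstem they were 382, 236 and 368 in libraries labelled knockout, against 186, 325 and 222 in controls, and the groups overlapped in both of these regions.

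The log2 fold change of Fjx1 was 0.71 in hippocampus (SE 0.20), as large as that of Fat4 there, but did not pass (limma adjusted p = 0.0542). It passed with edgeR (adjusted p = 0.0425), with DESeq2 (adjusted p = 0.0171), with an added constant of 20 (adjusted p = 0.0473), with a filter of 50 in 6 libraries (adjusted p = 0.0488), with the region fitted alone (adjusted p = 0.0406) and without control 3 (adjusted p = 0.0458). It was 0.21 in olfactory bulb, -0.22 in cortex (adjusted p = 1) and 0.43 in brainstem (adjusted p = 0.317). The effect in hippocampus minus that in cortex was 0.93 (95% confidence interval 0.34 to 1.52) and did not pass over all genes (limma adjusted p = 0.757). Nor did the test over the 4 regions (adjusted p = 0.585). Of the 7 genes limma called 0 in that test, beside 0.0552% of all genes, and edgeR and DESeq2 called 0. Fjx1 was the 1 gene of the 7 under an unadjusted p of 0.05, beside 7.28% of all genes. The average was 0.28 (SE 0.10, adjusted p = 0.0987) and passed without brainstem control 2 (adjusted p = 0.0196) or the brainstem library labelled knockout 2 (adjusted p = 0.0290).

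Celsr2, the seven-pass cadherin, did not differ by more than its spread. Its counts were 1032, 934 and 744 in libraries labelled knockout, against 1018, 878 and 1005 in controls of olfactory bulb. In hippocampus they were 818, 624 and 761 in libraries labelled knockout, against 665, 814 and 768 in controls, and in cortex 631, 585 and 694 in libraries labelled knockout, against 579, 620 and 690 in controls. In brainstem they were 1198, 707 and 758 in libraries labelled knockout, against 660, 1442 and 763 in controls. The groups overlapped in each region, and the log2 fold changes lay between -0.11 and 0.02. Their average was -0.05 with a 95% confidence interval from -0.26 to 0.17 (limma adjusted p = 0.884).

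**Figure D2:**
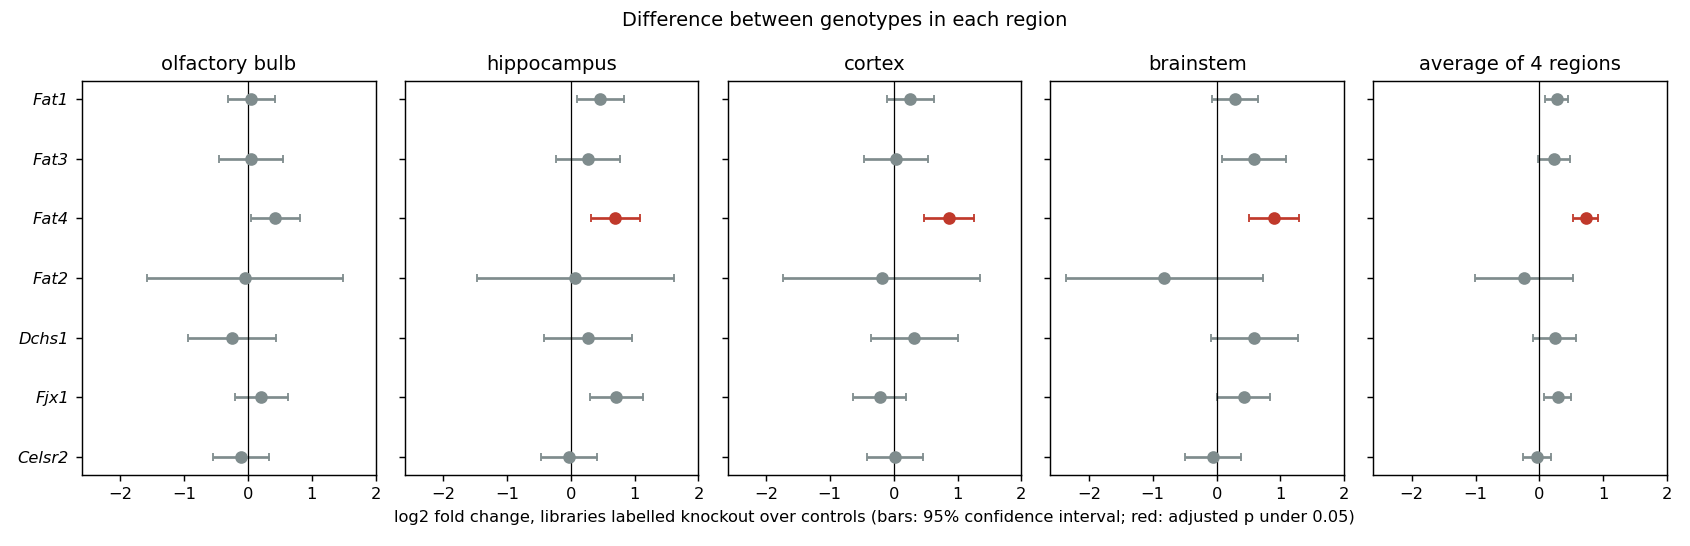
Log2 fold change of libraries labelled knockout over controls for the 7 genes in each region and for the average of 4 regions, with 95% confidence intervals and red points where the adjusted p was under 0.05. Fat4 is the red point in hippocampus (0.70), cortex (0.86), brainstem (0.90) and the average (0.72), Fjx1 stands near it in hippocampus alone (0.71), and Fat2 has the widest intervals.

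The ratio of Fat4 to Fat1 within a library does not depend on how libraries are scaled to each other. Per kb of exon this ratio was between 0.290 and 0.376 in olfactory bulb libraries labelled knockout and between 0.235 and 0.281 in controls. It was between 0.230 and 0.322 in libraries labelled knockout and between 0.158 and 0.198 in controls of cortex. In brainstem it was between 0.253 and 0.301 in libraries labelled knockout and between 0.162 and 0.198 in controls. Fat4 was therefore higher relative to Fat1 in 3 regions without overlap. How many other pairs of genes show this was not counted, and the counts of Fat4 alone were already without overlap. In hippocampus, where Fat1 also lay higher, the ratio was between 0.169 and 0.237 in libraries labelled knockout and between 0.160 and 0.180 in controls, with overlap. The ratio of Fat4 to Dchs1 per kb of exon, receptor over ligand, averaged 8.89 in libraries labelled knockout and 5.82 in controls of olfactory bulb, and 2.504 and 1.75 in cortex. It averaged 1.94 in libraries labelled knockout and 1.42 in controls of hippocampus and 3.74 and 3.07 in brainstem, where single libraries ranged from 1.99 to 6.13 in libraries labelled knockout and from 1.65 to 5.02 in controls. A ratio shows unequal change and not which gene of the pair changed.

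**Figure D3:**
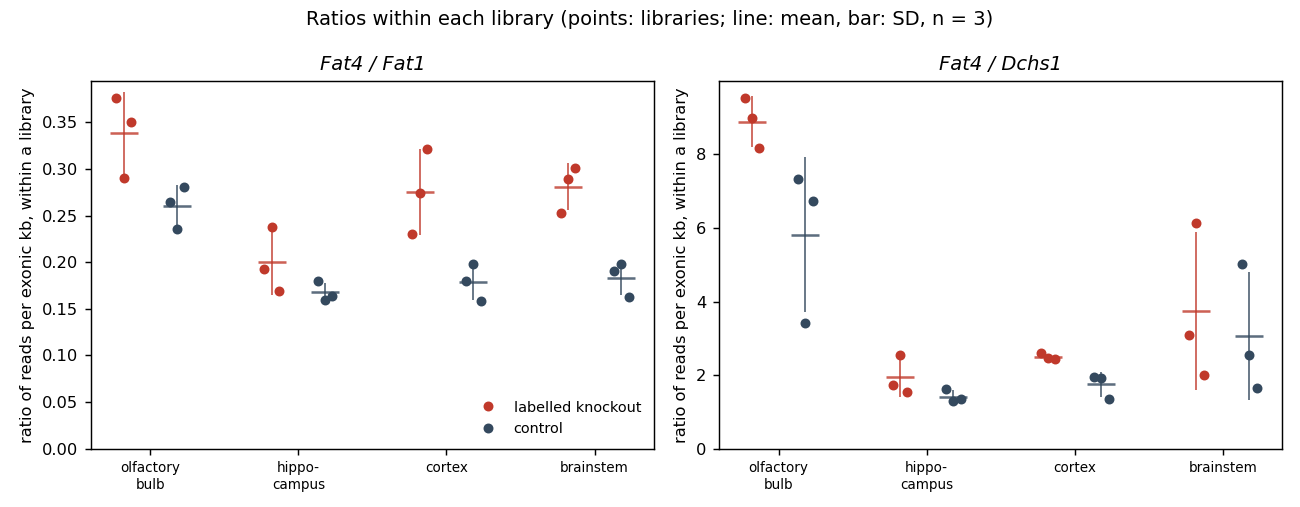
Ratios of Fat4 to Fat1 and of Fat4 to Dchs1 within each library, in reads per kb of exon on a linear axis from 0, with libraries labelled knockout to the left of controls, a line at the mean and a bar of 1 SD (n = 3). The Fat4 to Fat1 ratio separates the genotypes in olfactory bulb, cortex and brainstem, and the means of both ratios are highest in olfactory bulb.

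Among regions, Fat1 and Fat4 were highest in olfactory bulb and Fjx1 was highest in cortex, in both genotypes. Levels of regions are in reads scaled jointly over the 24 libraries and divided by kb of exon, because the deposited cortical values are on a scale of their own. In libraries labelled knockout, Fat4 averaged 106 ± 16.4 in olfactory bulb, 43.2 ± 7.42 in the hippocampus, 50.2 ± 5.15 in the cortex and 52.5 ± 8.15 in the brainstem (SD, n = 3). In controls it averaged 78.5 ± 9.85 in olfactory bulb, 26.3 ± 1.55 in the hippocampus, 27.6 ± 4.61 in the cortex and 28.7 ± 9.75 in the brainstem (SD, n = 3). Fat1 averaged 318 ± 69.99 in olfactory bulb and between 184 and 216 in the other regions of libraries labelled knockout. In controls it averaged 301 ± 17.8 in olfactory bulb, 157 ± 18.4 in the hippocampus, 154 ± 11.3 in the cortex and 155 ± 41.5 in the brainstem. For both genes the 3 olfactory bulb libraries lay above the other 9 of the same genotype, and no difference among the other 3 regions passed the test.

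Tests of pairs of regions called many genes. In libraries labelled knockout the share was 8.03% for olfactory bulb against hippocampus, 8.06% against cortex and 17.3% against brainstem, 0.886% for hippocampus against cortex, 14.6% for hippocampus against brainstem and 12.3% for cortex against brainstem. In controls these shares were 10%, 8.55%, 19.5%, 1.19%, 7.59% and 15.3% in the same order. The log2 difference of Fat4 in olfactory bulb over the other regions was between 1.02 and 1.30 in libraries labelled knockout, against between 1.48 and 1.56 in controls, and each of these 6 differences passed (limma adjusted p of at most 0.000259). For Fat1 it was, in libraries labelled knockout, 0.77 over cortex (limma adjusted p = 0.00462), 0.75 over brainstem (adjusted p = 0.00319) and 0.54 over hippocampus, which did not pass (adjusted p = 0.0648). In controls it was between 0.94 and 0.99, and each passed (adjusted p of at most 0.000536). The cortical difference of Fat1 in libraries labelled knockout was lost without the olfactory bulb library labelled knockout 2 (adjusted p = 0.0630). Over the 4 regions, 4 of the 7 genes were called in libraries labelled knockout (Fat1, Fat3, Fat4 and Fjx1), beside 21.5% of all 12759 genes tested on this scale. Without the olfactory bulb library labelled knockout 2 that call of Fat1 was lost (adjusted p = 0.0727). In controls 3 were called (Fat1, Fat4 and Fjx1), beside 23.5% of all genes. Without brainstem control 1, Fat2 and Fat3 were added to these 3, which made 5, and the same 5 were called with edgeR and with DESeq2. The regional calls of Fat2 are not read as results, because it passed the filter only through the brainstem.

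Fjx1 per kb of exon averaged 107 ± 2.06 in olfactory bulb, 269 ± 33.2 in the hippocampus, 346 ± 30.8 in the cortex and 104 ± 25.4 in the brainstem of libraries labelled knockout (SD, n = 3). Cortex was 1.74 above brainstem on the log2 scale (limma adjusted p = 2.81e-07), while the difference of hippocampus over cortex, -0.36, did not pass (adjusted p = 0.630). In controls it averaged 92.8 ± 12.7 in olfactory bulb, 164 ± 28.4 in the hippocampus, 408 ± 84.5 in the cortex and 77.6 ± 23.0 in the brainstem (SD, n = 3). From high to low the controls ran cortex, hippocampus and then olfactory bulb and brainstem, whose difference did not pass (0.28 on the log2 scale, adjusted p = 0.384). The log2 difference of cortex over brainstem was 2.39 (limma adjusted p = 6.12e-10), that of hippocampus over cortex -1.30 (adjusted p = 0.000715) and that of olfactory bulb over hippocampus -0.81 (adjusted p = 0.00811). The last was lost without olfactory bulb control 1 (adjusted p = 0.0610) or hippocampal control 3 (adjusted p = 0.0598). Whether the gap between hippocampus and cortex differed between genotypes is the hippocampus minus cortex test given above, which did not pass after adjustment.

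Fat3 was highest in brainstem, but the brainstem controls were far apart. In libraries labelled knockout it averaged 73.4 ± 11.03 jointly scaled reads per kb of exon in olfactory bulb, 60.5 ± 5.83 in the hippocampus, 69.1 ± 7.07 in the cortex and 134 ± 17.0 in the brainstem (SD, n = 3). The log2 difference was -0.87 for olfactory bulb over brainstem (adjusted p = 0.0140), -1.14 for hippocampus over brainstem (adjusted p = 0.00192) and -0.95 for cortex over brainstem (limma adjusted p = 0.0101). The first was lost without the olfactory bulb library labelled knockout 3 (adjusted p = 0.0675) or the brainstem library labelled knockout 1 (adjusted p = 0.0588). In controls the means were 70.8 ± 6.35 in olfactory bulb, 49.99 ± 2.66 in the hippocampus, 68.2 ± 10.7 in the cortex and 99.98 ± 62.1 in the brainstem. The difference of hippocampus over brainstem was -0.82 (adjusted p = 0.0373) and was lost without hippocampal control 1, 2 or 3 (adjusted p between 0.0817 and 0.105) or brainstem control 2 (-0.35, adjusted p = 0.235).

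Celsr2 and Dchs1 showed no regional call in either genotype. Celsr2 per kb of exon averaged between 63.6 and 78.2 in the regions of libraries labelled knockout and between 64.8 and 83.7 in those of controls, and its regional test gave an adjusted p of 0.712 in libraries labelled knockout and 0.534 in controls. Dchs1 per kb of exon averaged between 11.9 and 22.6 in libraries labelled knockout and between 11.4 and 18.8 in controls, with an adjusted p of 0.166 in libraries labelled knockout and 0.241 in controls. Brainstem control 1, at 51.4 normalised reads, was its lowest library. Without it, since all groups share 1 estimate of the spread, the test in libraries labelled knockout passed (limma adjusted p = 0.0470).

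**Figure D4:**
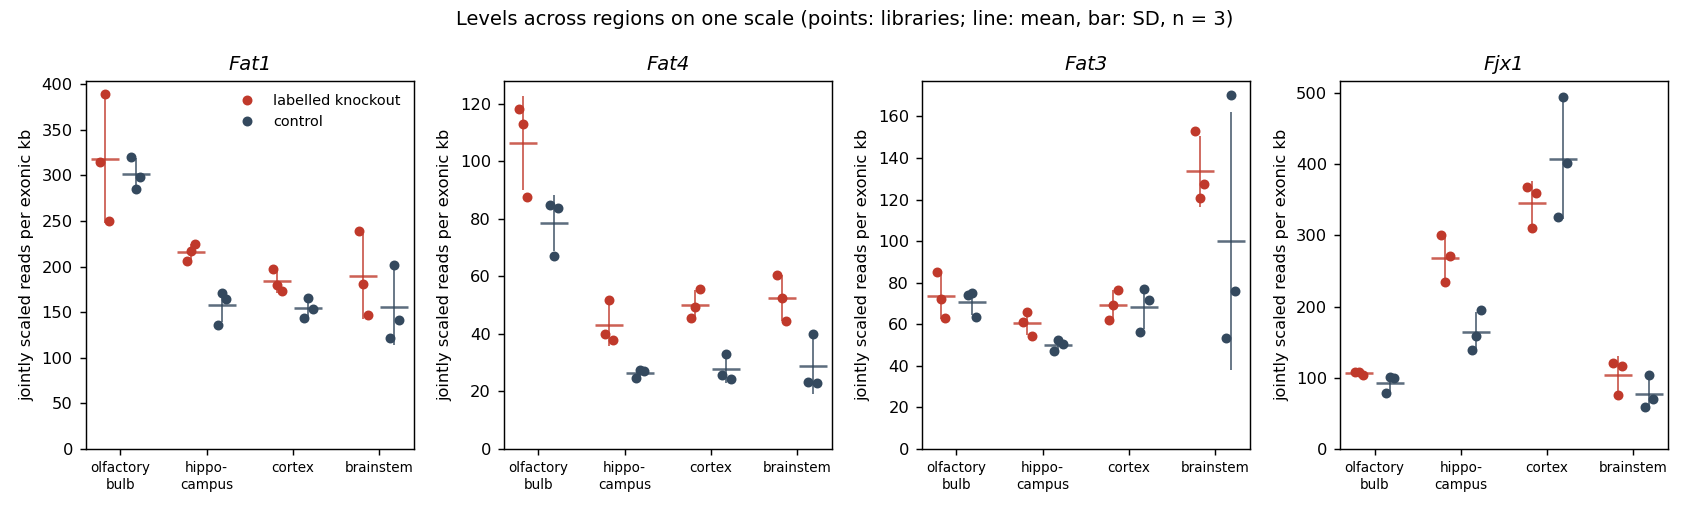
Jointly scaled reads per kb of exon for Fat1, Fat4, Fat3 and Fjx1 in each region, on linear axes from 0, with 1 point for each library, libraries labelled knockout to the left of controls, a line at the mean and a bar of 1 SD (n = 3). Fat1 and Fat4 are highest in olfactory bulb, Fjx1 in cortex, and the 3 brainstem controls of Fat3 are far apart.

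Per kb of exon, Fat1 gave the larger share of the summed level of the 4 Fat genes in every group, at a mean of between 49.9% and 67.6% in libraries labelled knockout and between 55.7% and 67.2% in controls. The share of Fat4 averaged 21.5% in libraries labelled knockout and 17.4% in controls of olfactory bulb, 13.5% and 11.3% in hippocampus, 16.5% and 11.02% in cortex and 13.98% and 10.2% in brainstem. The share of Fat3 was highest in brainstem, at 35.8% in libraries labelled knockout and 32.9% in controls. Fat2 averaged at most 0.305% in libraries labelled knockout and at most 1.26% in controls. Fjx1 per kb of exon was above Fat1 in cortex in both genotypes. The means were 346 for Fjx1 and 184 for Fat1 in libraries labelled knockout and 408 and 154 in controls. In hippocampal libraries labelled knockout they were 269 and 216. In hippocampal controls they were close, at 164 ± 28.4 and 157 ± 18.4 (SD, n = 3). Control 2 of hippocampus had the reverse order, with 159 for Fjx1 and 171 for Fat1.

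Over the 24 libraries, the level of Fat1 on the log2 scale varied most like that of Mvb12b, Fam19a5 and Fat4 among 8495 genes compared, with Pearson r of 0.93, 0.90 and 0.90. Fat4 varied most like Kcnd3 (0.92), Sh3pxd2b (0.91) and Adgrb1 (0.91), and Fjx1 like Gpc6 (0.94), Fermt2 (0.93) and Gli3 (0.93). Fat3 varied most like Abat (0.90), Aqp4 (0.90) and Chpt1 (0.87). The values were lower for Dchs1, with Plekhg1, Csdc2 and Bcr at 0.81, and for Celsr2, with Mboat2 (0.78), Lrp1 (0.77) and Atp2a2 (0.77). The points share region, genotype and library depth, so these are descriptions of which genes move together in these libraries. With the group means taken out, Fat1 and Fat4 had a correlation of 0.73 over the 24 libraries and Fat3 and Celsr2 of 0.80. Fat4 and Dchs1 had 0.21, and Dchs1 and Fjx1 0.76. Pairs not named here lay in the same range, such as Fat1 and Celsr2 (0.79) and Fat3 and Fat4 (0.77). The lowest pair was Fat2 and Fjx1 (0.04).

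Lists of genes around the Fat and Dachsous system are given by their counts, beside the 5.88% of all genes called for the average, of which 2.79% were higher and 3.09% lower. In the core planar polarity list, which holds the Frizzled, Vangl, Prickle and Dishevelled genes beside Celsr1 and Celsr3, 14 of 15 genes were tested. For the average of regions 1 was higher in libraries labelled knockout, 0 were lower and 13 did not pass, with a median log2 fold change of 0.06 beside -0.01 over all genes. The gene that rose was Celsr1, a close relative of Celsr2, with 0.46 (SE 0.13, limma adjusted p = 0.0284). In brainstem it averaged 41.7 ± 4.14 in libraries labelled knockout and 21.4 ± 1.02 in controls (SD, n = 3). The groups did not overlap, with libraries labelled knockout higher, which 5.41% of all genes tested also showed there. In cortex Celsr1 averaged 298 ± 22.0 in libraries labelled knockout and 313 ± 42.0 in controls. Its call was lost without olfactory bulb control 1, hippocampal control 1, cortical control 1, the olfactory bulb libraries labelled knockout 1 or 2, the hippocampal one labelled 3 or the cortical one labelled 2, with adjusted p of up to 0.0675. Within single regions limma called 0 of the 14, with between 0 and 4 under an unadjusted p of 0.05, 0 called by edgeR and 1 by DESeq2 in brainstem alone. Celsr3 was the other large cadherin tested, and Dchs2 is not analysed here.

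The Hippo kinases and their regulators, such as Stk3, Lats2 and Nf2, were tested as 21 of 22 genes. Limma called 0 for the average and 0 in each region. For the average, 5 were under an unadjusted p of 0.05, edgeR called 0 and DESeq2 called 1, and the median log2 fold change was -0.07. In single regions between 0 and 4 were under that unadjusted p, while edgeR called 0 and DESeq2 1 in hippocampus alone. Yap1, Wwtr1 and the TEAD genes are the transcription factors and coactivators that this pathway restrains. Their list of 8 genes also held Vgll3 and Vgll4, and 6 of the 8 were tested. Of these 6, limma called 0 for the average, with 0 under an unadjusted p of 0.05 and 0 called by edgeR or DESeq2. Yap1 had a log2 fold change of -0.12 and Wwtr1 of 0.09, and neither passed. Of 10 genes for partners of the Fat intracellular tail, such as Enah, Homer1 and Atn1, limma called 0 for the average, with 4 under an unadjusted p of 0.05, 0 called by edgeR and 2 by DESeq2.

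In a list of 21 YAP target genes, 19 were tested. For the average 1 rose, 2 fell and 16 did not pass, and the median was -0.14. Axl, a receptor tyrosine kinase, rose with a log2 fold change of 0.46 (limma adjusted p = 0.00910). Nt5e, the ecto-enzyme that makes adenosine, fell by 1.54 on the log2 scale (adjusted p = 0.00244), and Myof, a membrane repair protein, fell by 0.83 (adjusted p = 0.0425). In hippocampus 2 of the 19 fell, beside 1.79% of all genes that fell there and 3.09% for the average. These were Nt5e, with a log2 fold change of -2.73 (adjusted p = 0.0135), and Dock5, a Rac activator, with -2.38 (limma adjusted p = 0.0180), and the median of the list was -0.35 beside 0.00 over all genes. Dock5 averaged 49.9 ± 31.5 in hippocampal libraries labelled knockout and 238 ± 41.2 in controls, and Nt5e 0.844 ± 1.21 and 36.5 ± 20.5 (SD, n = 3). These 2 means of Nt5e were its lowest and highest of any group, so its level was low throughout. The choroid plexus marker sums of the same libraries, given above, were also lower in libraries labelled knockout, and 5 of those 8 markers fell in hippocampus. The summed level of 8 oligodendrocyte markers there had a median of 21352 in libraries labelled knockout and 38563 in controls, with overlap. The part of either cell type was not tested. Leaving out control 1 or knockout 2 of hippocampus ended the call of Dock5, and leaving out control 1, knockout 1 or knockout 3 that of Nt5e. The call of Myof was lost in 15 of 24 fits with 1 library left out, with adjusted p of up to 0.0886, and those of Axl and of Nt5e for the average were kept in all 24.

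Among 6 secreted kinases and relatives of the Four-jointed family, Fam20c, which phosphorylates secreted proteins, was the 1 gene that fell for the average (log2 fold change -0.80, SE 0.16, limma adjusted p = 0.00189), and 0 rose. It averaged 55.5 ± 15.9 in libraries labelled knockout and 134 ± 73.8 in controls of olfactory bulb, and 48.9 ± 1.62 and 103 ± 4.60 in cortex (SD, n = 3). The call was kept in each of 24 fits with 1 library left out. Within single regions limma called 0 of the 6, with 1 under an unadjusted p of 0.05 in each of the 4, while edgeR called 0 and DESeq2 1 in olfactory bulb alone.

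Of 16 classical cadherins 15 were tested, and 2 rose for the average while 0 fell and 13 did not pass, beside 2.79% of all genes higher and with a median log2 fold change of 0.24. These were Cdh19, a type II cadherin of glia, with a log2 fold change of 0.71 (limma adjusted p = 0.000100), and Cdh2, N-cadherin, with 0.53 (adjusted p = 0.000503). Cdh2 averaged 2478 ± 122 in libraries labelled knockout and 1426 ± 281 in controls of hippocampus, and 3776 ± 326 and 2980 ± 460 in olfactory bulb (SD, n = 3). Like Fat4, Cdh2 lay above every control in each of the 4 regions, which 0.221% of all genes tested did. Its lowest library labelled knockout was close to the highest control in brainstem (1735 against 1726) and in olfactory bulb (3562 against 3490). Cdh19 lay above every control in 3 regions, and the share of all genes that did so in 3 was not computed. Both average calls were kept in each of 24 fits with 1 library left out. Both genes were also called in hippocampus, where 0.718% of all genes were higher, and Cdh19 in brainstem (1.11, adjusted p = 0.0107), where 0.544% were. Leaving out hippocampal control 1 or knockout 3 ended the call of Cdh2 there, and leaving out control 1, control 2, knockout 1 or knockout 3 that of Cdh19. In brainstem, leaving out control 1 or knockout 3 ended the call of Cdh19. Its limma adjusted p in these fits reached 0.126 in brainstem and 0.178 in hippocampus.

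**Figure D5:**
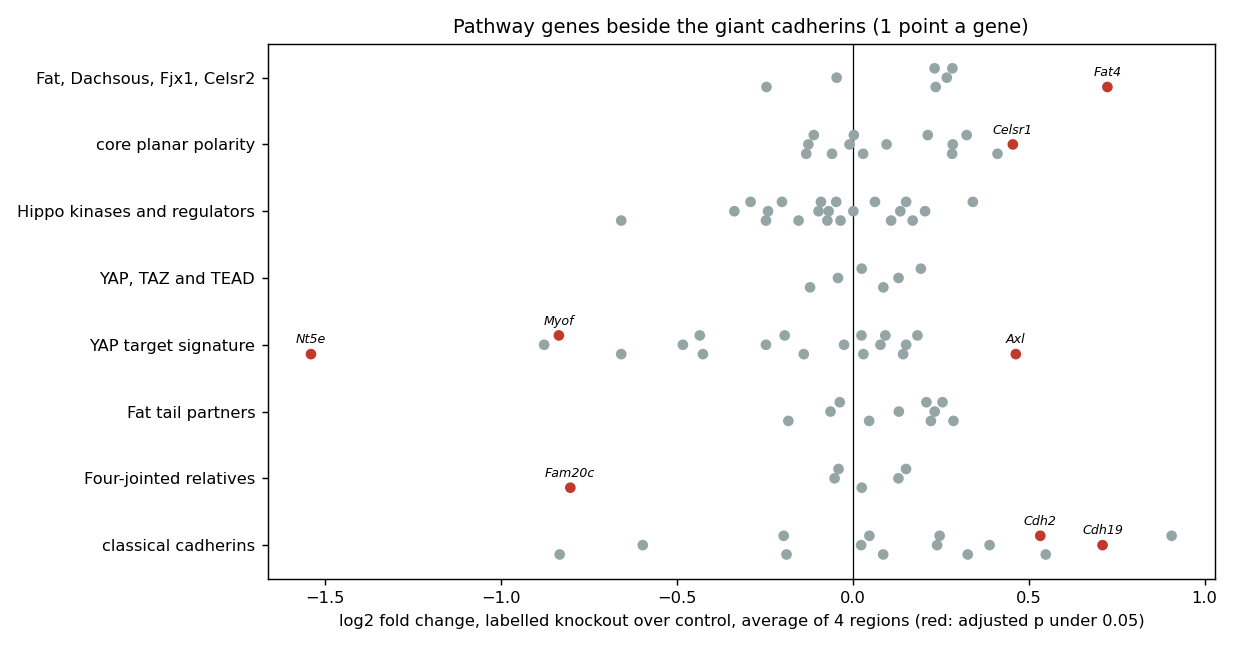
Log2 fold change of libraries labelled knockout over controls, averaged over 4 regions, with 1 point for each tested gene of the set and of the lists around it, and red points named where the adjusted p was under 0.05. Fat4 (0.72) and Cdh19 (0.71) are the highest red points, and Nt5e (-1.54) is the lowest.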

How the data were processed

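Per the labels, sorted astrocytes gave RNA by way of the RNeasy Micro kit, and libraries were built with NuGEN Trio chemistry on inputs of 5 ng. Per the submitters' processing notes, FastQC, STAR 2.5.0a, DESeq2 1.20.0 and mm10 were used; the counting tool, annotation and filters are not given in the sources used here. The authors deposited 1 normalised signal value per gene and library, under 24421 names (27 names are dates, and 2 repeat). Each value was a whole number of reads, within 0.01 read, divided by 1 factor per library. Factors of cortical libraries were 1.26 to 1.27 times factors computed jointly over 24 libraries as medians of ratios, against 0.994 to 0.998 times elsewhere, so regions were compared on jointly scaled reads. Depth ranged from 1090777 to 24297573 reads, which limits the precision of low genes.

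A gene was tested when 3 or more libraries reached a value of 20, which kept 12673 genes as deposited, 12759 jointly scaled, and 7 of 7 members. The response was log2(value + 5), which lowers the fold changes of low genes. The model, in limma 3.58.1 under R 4.3.3, had 8 group means, an intensity trend and robust moderation. Tests were two-sided, with Benjamini-Hochberg adjustment in each contrast and a threshold of 0.05. Alternatives were edgeR 4.0.16 and DESeq2 1.42.0 on recovered reads, TMM scaling, other constants and filters, a replicate block, single regions and each library left out. Only the limma contrasts of genotype within single regions were tried on simulated data, with libraries drawn independently, and the outcome is not given here. The members and lists were chosen with earlier results of these data known. Named genes were the members, up to 4 genes of a list that passed, and the 3 genes most like each member in Pearson r, unnamed models left out; Aqp4, Cbln3, Gabra6, Yap1 and Wwtr1 were named after their values were seen. Promoters and gene spans came from RefSeq (GRCm38.p6) and GENCODE vM21.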

Additional observations from a re-analysis of the deposited data

How the results depend on the processing

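Of the 7 genes, 1 was called in hippocampus. That count became 2 with an added constant of 20, a filter of 50 in 6 libraries, edgeR, DESeq2 or the region fitted alone, Fjx1 being the gene added, and 0 with no filter. The 1 call in cortex became 0 with no filter or edgeR (Fat4 adjusted p = 0.108 and 0.0501). The 1 call in brainstem became 0 with edgeR (0.0551) or the region fitted alone (0.728), a fit that called 0 of all genes there. For the average, 1 call became 2 with DESeq2 or without the olfactory bulb and brainstem libraries labelled knockout 3, Fat1 being added, and the 3 regional calls in controls became 5 with edgeR and with DESeq2, Fat2 and Fat3 being added, of which Fat2 passed the filter only through brainstem. The 4 results that changed sign were small ones: Fjx1 for the average over olfactory bulb and cortex alone (-0.0036), and Celsr2 without the libraries labelled knockout 3 in olfactory bulb (0.025), in brainstem (0.034) and for the average (0.011). Both of these selections of libraries were chosen after seeing the data. The cause of these changes was not tested.

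With 1 library left out, the members called numbered 0 to 1 in hippocampus and in cortex, 0 to 2 in brainstem, 0 to 0 in olfactory bulb, 1 to 4 for the average, 0 to 1 for the difference among regions, and 3 to 5 among regions in controls and in libraries labelled knockout. The 4 calls for the average came without brainstem control 2 (Fat1, Fat3, Fat4 and Fjx1). Log2 fold changes that changed sign in some of these fits ranged for Celsr2 from -0.21 to 0.025 in olfactory bulb, -0.11 to 0.080 in hippocampus, -0.047 to 0.084 in cortex, -0.29 to 0.28 in brainstem and -0.10 to 0.039 for the average. Those of Fat2 ranged from -0.23 to 0.13, -0.17 to 0.23, -0.74 to 0.39, -1.78 to 0.18 and -0.48 to 0.0044 in the same order. Those of Fat3 ranged from -0.064 to 0.15 in olfactory bulb and -0.097 to 0.12 in cortex, and those of Fat1 from -0.10 to 0.22 in olfactory bulb.

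Libraries of the same number were not taken as pairs: the correlation of deviations was between -0.11 and 0.32 over 12 pairs of genotypes, and 5 were over 0.1. Over 36 pairs of regions of 1 genotype it was between -0.19 and 0.32, and 10 were over 0.1. No fit of the difference between genotypes took regions of 1 number as pairs. Of 12 libraries labelled knockout, 8 correlated best with the control of their own number, a hint from the data and not from the design. With the replicate block, the pairing kept the calls of Fat4 in hippocampus (adjusted p = 0.0496), cortex (0.0458), brainstem (0.0329) and the average (7.76e-05), added Fat3 among control regions (0.0357) and ended that of Celsr1 (0.0518). With no filter Fat3 lost its call for hippocampus over brainstem in controls (0.0752), as it did with limma on the TMM scale (0.0564), and Fat4 (0.0901) and Cdh19 (0.0669) lost theirs in hippocampus and Myof its average call (0.0959). Cdh19 lost its brainstem call with that region fitted alone (0.728). Counts of all genes called were 11 in olfactory bulb, 318 in the hippocampus, 41 in the cortex and 98 in the brainstem. In that order they were with DESeq2 60, 638, 92 and 167, and with the region fitted alone 86, 422, 147 and 0. Olfactory bulb had 22 with a constant of 20 and 19 with the block, cortex 22 with no filter and brainstem 31 with edgeR. For the difference among regions, 7 became 12 with a constant of 1, 0 with no filter, 15 with edgeR, 85 with DESeq2 and 21 with the block. With 1 library left out, the counts, on which the shares of all genes called rest, ranged from 3 to 9 in olfactory bulb, 90 to 251 in the hippocampus, 16 to 25 in the cortex, 17 to 892 in the brainstem, 0 to 89 for the difference among regions and 539 to 1293 for the average, where the main count was 745. The counts of 892, 89 and 1293 came without brainstem control 2. Fat2, at 55 reads or fewer, is limited by depth throughout.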
